A study of Mus musculus with 4 samples.

Results

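The genes described here are 9 that were listed together as Leydig identity factors and hormone receptors: Nr5a1, Nr0b1, Gata4, Gata6, Zfpm2, Wt1, Lhcgr, Prlr and Insl3. They were found on the array by gene symbol, and 8 of the 9 had a probe, 1 each, among 19718 genes with a probe that carries a single symbol. Insl3, which encodes the insulin-like peptide that Leydig cells secrete, was matched by no probe, by symbol or by gene ID, and was not analysed here. The values come from MA-10, a mouse Leydig tumor cell line, which was exposed to 100 μmol/L cordycepin (an adenosine analog) or to vehicle for 3 hours. Each of these groups was measured on 2 one-colour Mouse OneArray arrays, named control 1 and 2 and cordycepin 1 and 2 below. The labels call the vehicle PBS and the study's methods call it DMSO, and 1 protocol field gives the cordycepin as a mass concentration instead. Nothing in the labels says that the 2 arrays of a group came from separate cultures. The p-values thus rest on a spread between arrays, pooled over probes, that may be technical. MA-10 is a single clonal tumor line, and no primary Leydig cells were measured.

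Leydig cells of the testis make testosterone under the control of luteinizing hormone, which acts through the receptor LHCGR and cyclic AMP. Their steroidogenic genes are switched on by NR5A1 (steroidogenic factor 1), a nuclear receptor that binds DNA as a monomer, together with the zinc-finger factors GATA4 and GATA6. NR0B1 (DAX-1) lacks the usual zinc-finger DNA-binding domain and represses NR5A1, and ZFPM2 (FOG2) binds GATA factors and modulates them. WT1 is a zinc-finger factor of the early gonad and of Sertoli cells, and PRLR is the prolactin receptor, a cytokine receptor that signals through JAK2 and STAT5.

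The recognition element of NR5A1 contains the nuclear receptor half-site AGGTCA, and Nr0b1 is a known target of NR5A1. Of the promoters that could be read for Nr0b1, Lhcgr, Insl3 and Prlr (RefSeq, mouse build GRCm38.p6, 250 bases before the start of transcription to 50 after), those of Nr0b1 and Lhcgr held these letters and are shown, 5′ to 3′, with the AGGTCA match in capitals.
Nr0b1 (chrX:86191525-86191824, plus strand): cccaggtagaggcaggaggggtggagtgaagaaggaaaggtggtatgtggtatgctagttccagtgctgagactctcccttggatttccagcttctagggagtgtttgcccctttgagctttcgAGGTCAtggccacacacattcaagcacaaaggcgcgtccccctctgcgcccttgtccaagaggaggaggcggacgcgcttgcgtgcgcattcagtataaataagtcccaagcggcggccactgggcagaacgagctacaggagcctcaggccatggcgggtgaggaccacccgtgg
Lhcgr (chr17:88791965-88792264, minus strand): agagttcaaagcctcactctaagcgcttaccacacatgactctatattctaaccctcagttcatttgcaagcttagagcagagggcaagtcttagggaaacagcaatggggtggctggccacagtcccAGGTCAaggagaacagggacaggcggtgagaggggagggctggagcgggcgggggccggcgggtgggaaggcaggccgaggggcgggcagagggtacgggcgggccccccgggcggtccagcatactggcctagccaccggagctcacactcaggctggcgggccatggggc
The match began 126 bases before the start of transcription in Nr0b1 and 122 before it in Lhcgr, each on the strand of the gene. On either strand, AGGTCA was present in 5340 of 32851 mouse promoters of this length, 16.3% of them, so that the letters alone single out no gene. The Insl3 promoter and the 3 Prlr promoters read held no AGGTCA, and none of these 6 windows held GATAA, a core of GATA sites that was present in 25.4% of all promoters. A match is given as a description of the sequence and was not tested for binding. Only these exact letters were searched, so that the absence of a match does not show the absence of a site.

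After 3 hours of cordycepin, the probes of Gata6, Gata4 and Nr5a1 were lower than in control cells, 11.5-fold, 3.05-fold and 2.20-fold, and no probe of the set was higher. The probes of Nr0b1 and Lhcgr did not pass the test, that of Prlr was close to the threshold, and those of Zfpm2 and Wt1 were not detected on any array. Of the 7 member probes tested, 3 were thus lower, 0 higher and 4 did not pass. Among all 24319 probes tested, 13% were lower and 1.19% higher by the same rule. Of the 6 members that both arrays of a group detected, 3 were lower, against 22.1% of all such genes. At an unadjusted p under 0.05 in limma, 4 member probes were lower and 0 higher, against 4386 and 678 of all probes tested. Levels are given as the authors' normalized intensity, tests are limma's on its log2, with Benjamini-Hochberg adjustment across all probes tested. Limma gave every probe the same standard error, 0.41 on the log2 scale, and the smallest log2 ratio that passed was 1.10 in size. A probe's own spread between arrays thus did not enter its p-value in this fit. In bulk RNA, fewer cells of a type and less RNA per cell cannot be told apart. Intensities of different probes are not comparable as levels of their genes.

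**Figure D1:**
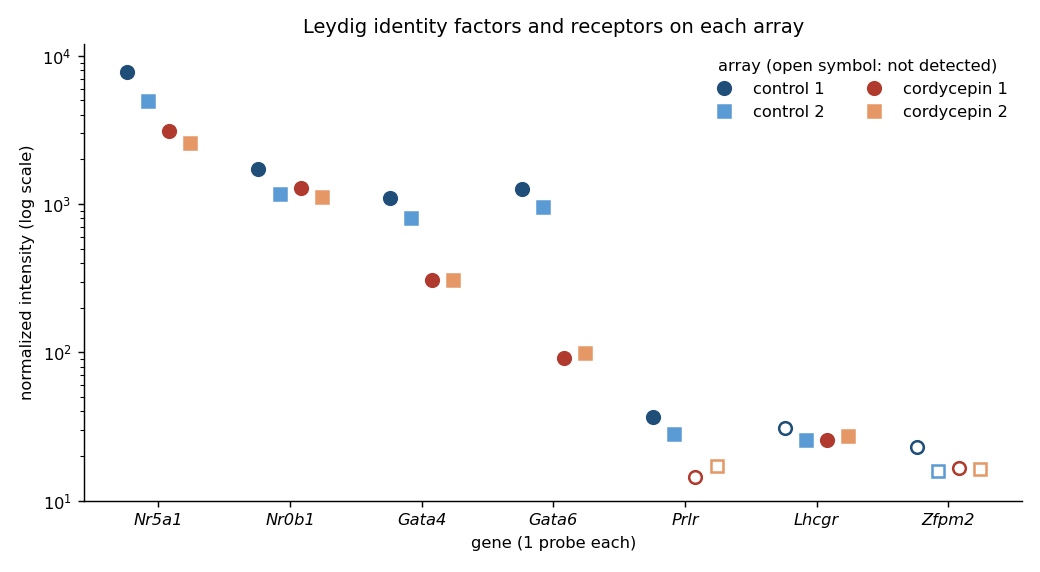
Normalized intensity (log scale) of the 7 member probes above 0 on every array, 1 symbol per array, with open symbols where the detection p was 0.05 or more. The cordycepin arrays lie below both control arrays for Nr5a1, Gata4, Gata6 and Prlr and overlap them for Nr0b1, Lhcgr and Zfpm2. They lie below both for 32.4% of all probes tested. Levels of different genes are not comparable.

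Gata6 had the lowest ratio of the members tested. Its normalized intensity was 1260 and 962 on the control arrays and 92.2 and 99.1 on the cordycepin arrays. The groups were far apart, all 4 arrays detected the probe, and the cordycepin values lay close to each other. The mean went from 1111 ± 211 to 95.7 ± 4.86 (SD, n = 2 each), a log2 ratio of -3.53 (95% interval -4.32 to -2.73) with a limma adjusted p of 6.0e-16. Of all probes tested, 187 had a lower ratio, 0.769% of them. The same order stood in the raw intensities, 1101 and 1084 in control against 83.0 and 109 with cordycepin. The call held in each of the 9 limma alternatives, with adjusted p-values from 1.3e-23 to 0.022.

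Gata4, the other GATA factor of Leydig cells, was also lower. The normalized intensities were 1100 and 806 in control and 308 and 310.0 with cordycepin. The groups did not overlap, as was so toward lower values for 32.4% of all probes tested, and the cordycepin arrays were nearly equal. The mean went from 953 ± 208 to 309 ± 1.57 (SD, n = 2 each), a log2 ratio of -1.61 (95% interval -2.41 to -0.81, limma adjusted p = 0.00095). The call was lost without cordycepin 1 (adjusted p = 0.10) or cordycepin 2 (0.098), where the ratio was -1.60 and -1.61. In the raw intensities the values were 961 and 908 in control and 277 and 341 with cordycepin.

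Nr5a1 was lower as well, by less than Gata4 in the deposited values and by more after quantile normalization (log2 ratios of -1.03 for Nr5a1 and -0.95 for Gata4). Its normalized intensity was 7745 and 4964 in control and 3094 and 2578 with cordycepin. The groups did not overlap, like those of 32.4% of all probes tested toward lower values. The control arrays differed more from each other than the cordycepin arrays did. The mean went from 6355 ± 1966 to 2836 ± 365 (SD, n = 2 each), a log2 ratio of -1.13 (95% interval -1.93 to -0.34, limma adjusted p = 0.039). The raw intensities were 6766 and 5592 in control and 2785 and 2836 with cordycepin. The call was close to the threshold, and 12.5% of all probes had a lower ratio. It was lost without control 1 (adjusted p = 0.056), cordycepin 1 (0.31) or cordycepin 2 (0.58), and when values under 1 were raised to 1 (0.14).

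Nr0b1, the repressor of NR5A1, gave 1733 and 1170 in control and 1279 and 1124 with cordycepin. These normalized values overlapped, and the probe was detected on all 4 arrays. The means were 1452 ± 398 and 1201 ± 110 (SD, n = 2 each), a log2 ratio of -0.25 (95% interval -1.05 to 0.55, limma adjusted p = 0.93). The interval leaves room for a change of either sign. In the raw intensities, 1514 and 1318 against 1151 and 1236, the groups did not overlap, as was so toward lower values for 35.1% of all probes in those units and for 32.4% in the normalized ones.

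The receptors were dim. Prlr gave 36.6 and 28.4 in control, where both arrays detected it, and 14.4 and 17.3 with cordycepin, where neither did. The groups did not overlap, as was so toward lower values for 32.4% of all probes tested. With each cordycepin array set to its own lowest intensity that counted as detected, the probe was at least 1.43-fold lower. Its log2 ratio of -1.03 (95% interval -1.83 to -0.23) did not pass (limma adjusted p = 0.074). It passed when array medians were made equal (0.026), after quantile normalization of the raw values (0.030), after scaling on ribosomal protein probes (0.0040), among detected probes only (0.0098) and without control 2 (0.018).

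Lhcgr, the receptor for luteinizing hormone, gave 30.9 and 25.7 in control and 25.6 and 27.3 with cordycepin. The arrays of the groups overlapped, and the probe was detected on 3 of the 4 arrays, the exception being control 1, where its intensity was the highest and its detection p was 0.43. The log2 ratio was -0.10 (95% interval -0.89 to 0.70, limma adjusted p = 0.995). The probe lay close to the lowest intensity detected on each array, 19.5 to 25.2.

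Zfpm2, the GATA cofactor, gave 22.9 and 15.98 in control and 16.7 and 16.4 with cordycepin and was detected on no array, so that no fold is given. Wt1 gave 2.29 and -0.888 in control and 2.22 and 1.82 with cordycepin. It was detected on no array either, and, with a value below 0, it was not tested. The related cofactor Zfpm1 (FOG1), by contrast, was detected on all 4 arrays at 1549, 1083, 931 and 988, with a log2 ratio of -0.43 that did not pass (adjusted p = 0.71). Of the other GATA factors listed, Gata1 was detected on all 4 arrays, at 322 and 176 in control and 242 and 209 with cordycepin, which overlapped (log2 ratio -0.08, adjusted p = 0.995). Gata2, Gata3 and Gata5 were detected on none.

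How arrays are scaled against each other sets the size of every ratio given so far, and the deposited values are the raw intensities times 1 constant per array, from 0.888 to 1.14. Over all probes tested, the median log2 ratio was -0.10 as deposited, 0.24 with array medians made equal and 0.14 after quantile normalization. It was -0.35 with the median of 50 ribosomal protein probes made equal between arrays. The deposited, median and ribosomal scalings differ by a constant per array, so that values relative to the median of all probes are the same under them by construction: -3.43 for Gata6, -1.51 for Gata4, -1.04 for Nr5a1 and -0.93 for Prlr on the log2 scale. Quantile normalization gave -2.96, -1.08, -1.17 and -0.90 on the same basis. Without that correction, over the 4 scalings, Gata6 ranged from -3.78 to -2.83, Gata4 from -1.86 to -0.95, Nr5a1 from -1.39 to -0.80 and Prlr from -1.28 to -0.69 on the log2 scale. The first 3 passed the test under each scaling. With array medians made equal, 17.6% of all probes were lower and 20.5% higher, and 4 of the 7 members tested were lower, Prlr being the fourth. The sign for Nr0b1 and Lhcgr depended on the scaling: with medians equal the ratios were 0.09 and 0.24 and passed no test, and on ribosomal protein probes they were -0.50 (adjusted p = 0.034) and -0.35 (0.101). Undetected Zfpm2 passed on ribosomal protein probes as well (-0.47, adjusted p = 0.021), with a ratio of 0.13 when medians were equal.

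**Figure D2:**
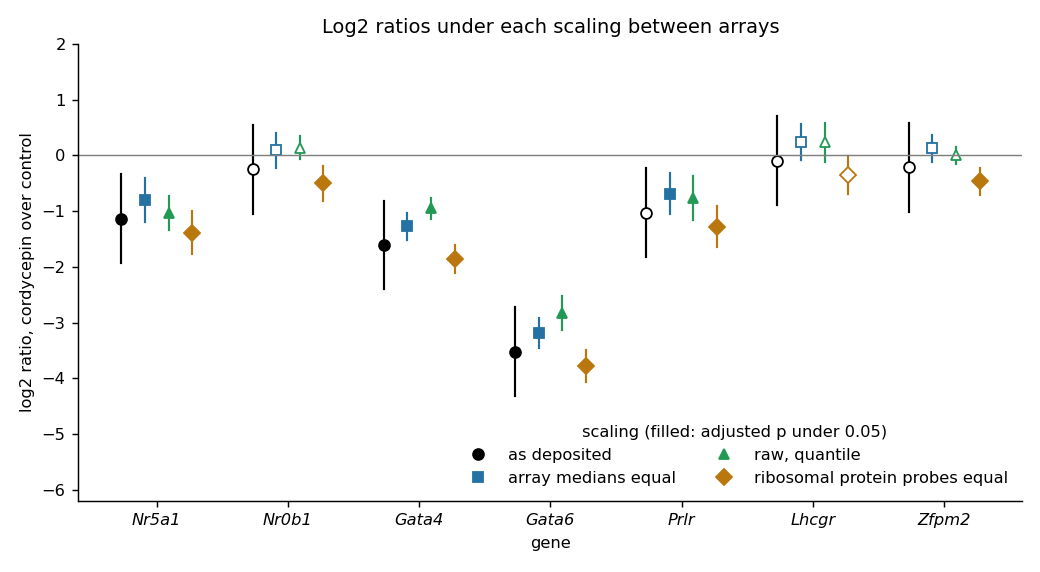
Log2 ratio of cordycepin over control for the 7 member probes tested, under the deposited scaling and 3 others, with 95% intervals from limma (n = 2 arrays per group) and filled symbols where the adjusted p was under 0.05. Gata6, Gata4 and Nr5a1 are below 0 and filled under all 4 scalings, whereas Nr0b1 and Lhcgr lie on either side of 0.

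Ratios between members within an array do not depend on a constant per array. They were taken for the 6 pairs among the 4 members detected on every array and are given here as the change from control to cordycepin. The Nr5a1 to Nr0b1 ratio fell by 0.89 on the log2 scale, and its value relative to the control mean was -0.85 and -0.92 on the cordycepin arrays, while the control arrays differed by 0.07. The probes of NR5A1 and its repressor thus changed unequally, which does not show that Nr0b1 stayed the same. The Gata4 to Gata6 ratio rose by 1.92, with 1.96 and 1.87 on the cordycepin arrays against a gap of 0.06 between the control arrays. Nr0b1 gained on Gata6 by 3.28 and on Gata4 by 1.36. Nr5a1 gained on Gata6 by 2.39 and on Gata4 by 0.47, the smallest of the shifts, with 0.61 and 0.34 on the cordycepin arrays and a gap of 0.19 between control arrays. Quantile normalization, which is not a constant per array, turned the Nr5a1 to Gata4 shift to -0.08 and kept the direction of the other 5. Each of the 6 shifts was larger than the gap between arrays of a group. The 6 pairs share 4 probes and are not independent, and how often pairs of other probes shift so was not tested. Among single probes, the groups did not overlap for 32.4% toward lower and 9.67% toward higher normalized values. With 2 arrays against 2, an exact two-sided permutation test cannot go below p = 0.333, so no test was made.

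**Figure D3:**
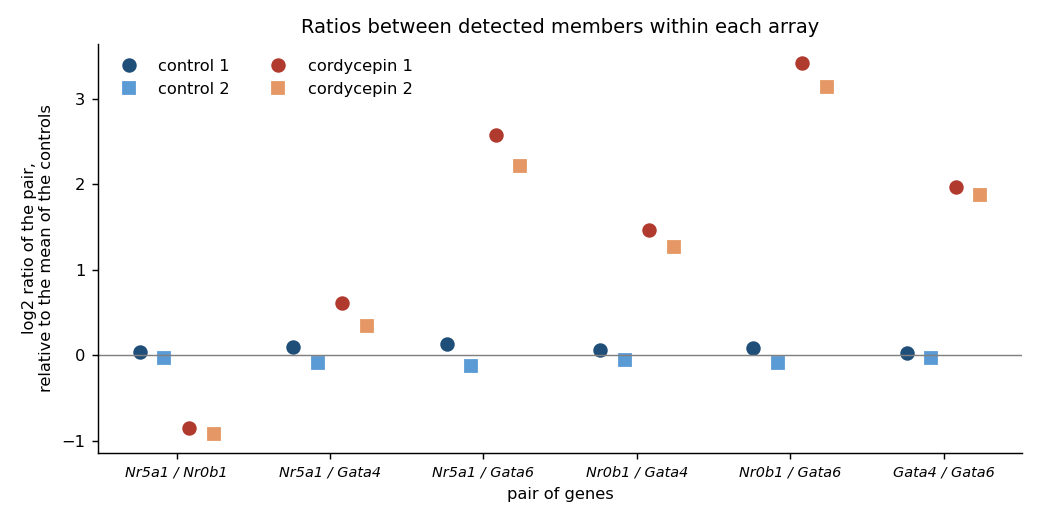
Log2 ratio of each pair of detected members within an array, relative to the mean of the control arrays, 1 symbol per array. The Nr5a1 to Nr0b1 ratio is lower on the cordycepin arrays, and the ratios over Gata6 are higher by 1.92 to 3.28. The pairs share probes and are not independent.

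The genes whose profile over the 4 arrays was most like that of a member are given as a description, among 11282 genes compared by the root mean square difference of log2 values after subtracting each gene's mean. Nearest to Nr5a1 were Gigyf1 (0.0048) and Mtor (0.010), to Nr0b1 Rraga (0.0028) and Tmem131 (0.011), and to Gata4 Arf6 (0.0089) and Brpf1 (0.014). Nearest to Gata6 were Rnf19a (0.018) and 1810032O08Rik (0.024), to Lhcgr Olfr287 (0.010) and Ust (0.011), and to Prlr Ceacam13 (0.023) and Myo19 (0.023). Within a difference of 0.1 lay 42 genes for Gata6, 177 for Prlr, 335 for Nr5a1, 360 for Gata4, 948 for Lhcgr and 1562 for Nr0b1. Fewest genes lay near Gata6 and most near Nr0b1, over 4 arrays only. These counts largely restate where the ratio of each member lies among those of all probes.

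Around the members stand the partners through which they act, in 5 lists of related genes, each gene taken by its brightest probe. Over all 18478 genes tested, 14.7% were lower and 0.942% higher, with a median log2 ratio of -0.13. Of the 11283 genes that both arrays of a group detected, in either group, 22.1% were lower. No gene of the 5 lists was higher after adjustment. At an unadjusted p under 0.05 in limma, 1 was higher among the NR5A1 partners, 1 among the receptor signalling genes and 0 in the other lists. Of all 24319 probes tested, 678 were higher at that threshold.

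Of 44 tested partners and coregulators of NR5A1 and NR0B1, 13 were lower and 31 did not pass, with a median log2 ratio of -0.51, and 13 of the 37 detected ones were lower. Nr0b2 (SHP), the closest relative of Nr0b1 and like it a repressor of nuclear receptors, was at 448 and 303 in control and 23.3 and 20.9 with cordycepin. Its mean went from 375 ± 102 to 22.1 ± 1.71 (SD, n = 2 each), a log2 ratio of -4.06, where Nr0b1 gave -0.25. The Nr0b2 probe was not detected on cordycepin 1, where the lowest detected intensity was 24.4. On cordycepin 2 its value equalled the lowest detected intensity, 20.9. The size of the Nr0b2 ratio thus rests on cordycepin values at or under the detection limit. Cbx2, a Polycomb protein needed for gonadal development, was at least 12.5-fold lower (286 ± 67.3 to 16.6 ± 1.64), and the deacetylase Sirt1 at least 5.23-fold lower (120 ± 32.1 to 8.08 ± 1.14), since neither was detected with cordycepin. Cited2, a coactivator, had a log2 ratio of -5.21, and the acetyltransferase Ep300 one of -2.75 (468 ± 133 to 68.3 ± 2.36). The calls of these 5 held under every limma alternative, and a second Cited2 probe gave -2.87.

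Of 35 tested genes of the GATA, FOG and WT1 families and their partners, 5 were lower and 30 did not pass, with a median of -0.30, and 5 of the 32 detected ones were lower. The share of genes tested was 14.3%, against 14.7% over all genes, and that of detected genes 15.6%, against 22.1%. Among them were Wtap (-1.57), which encodes the WT1-associated subunit of the RNA methyltransferase complex, Trps1 (-1.33), an atypical GATA factor, the bromodomain protein Brd3 (-1.32), and Mta2 (-1.27), a subunit of the NuRD complex to which FOG proteins bind. The calls of Wtap, Trps1, Brd3 and Mta2 were lost without cordycepin 1 or without cordycepin 2, that of Mta2 also without control 1, and those of Trps1, Brd3 and Mta2 when values under 1 were raised to 1. A second probe of Wtap gave -0.45. The Gata6 ratio was lower than each of these.

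Of 52 other transcription factors of Leydig cells tested, 21 were lower and 31 did not pass, with a median of -0.86, and 21 of the 42 detected ones were lower. Detected genes that were lower included Junb (-4.49), an AP-1 subunit, Foxo1 (at least 3.24-fold lower), Smad3 (-3.08), a transducer of TGF-beta and activin signals, Klf6 (-3.01), and Hes1 (-2.66), a repressor induced by Notch. Klf6 was at 986 ± 207 in control and 121 ± 2.21 with cordycepin, and Hes1 at 175 ± 46.9 and 27.3 ± 2.50 (SD, n = 2 each). These 5 calls held under every limma alternative.

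Of 69 other hormone and growth factor receptors tested, 21 were lower and 48 did not pass, with a median of -0.17, and 18 of the 42 detected ones were lower. The receptors Acvr1 and Acvr2a, which bind ligands of the TGF-beta family, were at least 7.74-fold and 6.40-fold lower. Acvr1 went from 178 ± 50.3 to 19.5 ± 0.643 and Acvr2a from 146 ± 31.1 to 13.5 ± 0.214 (SD, n = 2 each), and neither was detected with cordycepin. The receptors Notch1 and Notch2 had ratios of -2.75 and -2.73. A second Notch2 probe gave -0.11. The probe of Fshr, the receptor of the other gonadotropin, was detected on no array.

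Of 42 tested partners in signalling from LHCGR and PRLR, 9 were lower and 33 did not pass, with a median of -0.48. Of the 37 detected ones, 9 were lower. The share of detected genes was 24.3%, close to the 22.1% over all genes, and that of genes tested 21.4%, against 14.7%. The lower genes included the feedback inhibitor Socs3 (-4.54), the exchange factor Sos1 (at least 2.22-fold lower), the adaptor Gab2 (-1.85), the kinase Pim1 (-1.65) and the small GTPase Arf6 (-1.62). Second probes of Gab2 and Arf6 gave -0.45 and -0.91. The calls of Pim1 and Arf6 were lost without cordycepin 1 or without cordycepin 2.

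**Figure D4:**
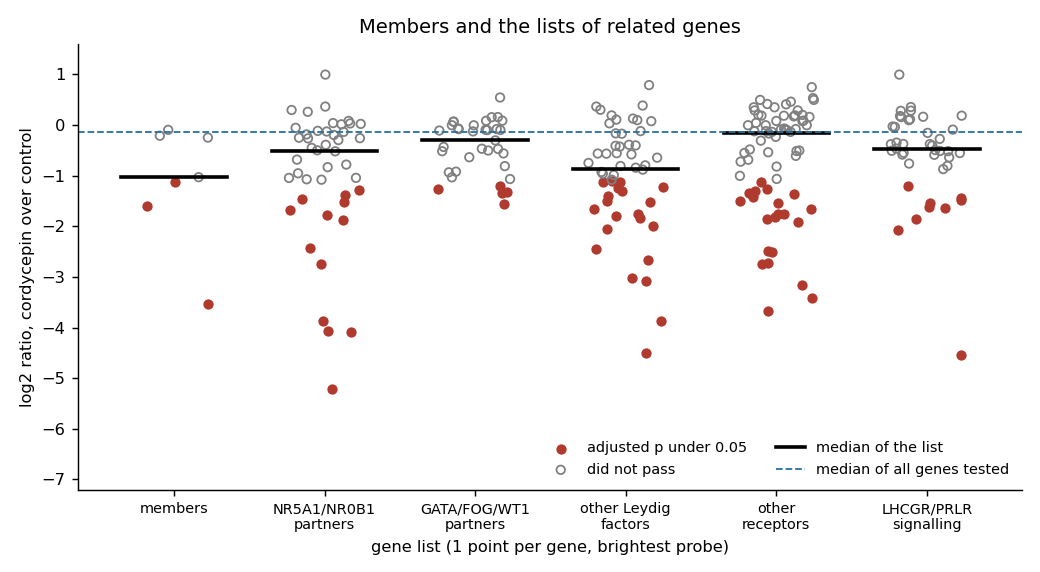
Log2 ratio of cordycepin over control for each gene tested in the member set and the 5 lists, 1 point per gene, with filled points where the adjusted p was under 0.05, a bar at the median of the list and a dashed line at the median of all genes tested, -0.13. The filled points all lie below 0, and the medians of the 5 lists run from -0.86 to -0.17.

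The cells carried the markers of their label in part. Of 14 Leydig markers with a probe, 11 were detected on all 4 arrays, among them Star, Cyp17a1, Hsd3b1 and Hsd17b3, while the Cyp11a1 probe was at 0 on every array and Ptgds was not detected. Their summed intensity was 61683 and 44983 in control and 52851 and 47576 with cordycepin, which overlapped. Sertoli markers were detected on all arrays for 3 of 15 (Dhh, Gata1, Rhox5), with sums of 41875 and 31886 in control and 40394 and 28369 with cordycepin, and Amh and Fshr were undetected. Sox9 of that list was at 98.4 and 69.2 in control and was not detected with cordycepin. For the other lists the markers detected on all arrays were 2 of 14 for germ cells (Ddx4, Acrv1), 2 of 9 for macrophages (Cd68, Cd14), 2 of 6 for peritubular cells (Des, Tpm2), 3 of 8 for endothelium (Pecam1, Cdh5, Cldn5) and 2 of 6 for adrenal cortex (Mrap, Akr1b7), whose Cyp11b1 and Cyp21a1 were not detected. Sums in control and with cordycepin overlapped for germ cells (137 and 113 against 116 and 113), peritubular cells (120 and 91.4 against 98.9 and 103) and adrenal cortex (3094 and 2304 against 2334 and 2814). They did not overlap for endothelium (793 and 558 against 530 and 470.0) or macrophages (424 and 312 against 296 and 272). Among single probes tested, 32.4% did not overlap toward lower values, and how often sums do so was not tested. Sums of different lists are not comparable, because intensities of different probes are not. The part of other cell types in the results was not tested.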

How the data were processed

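The values came from 4 arrays of MA-10 cells (2 control, 2 cordycepin), with 26423 probes each and RNA primed with oligo-dT per the labels. The authors deposited raw and normalized intensities and, for each probe on each array, a detection p-value. Each normalized intensity equalled the raw intensity times 1 constant per array, and the method behind it is not given in the sources used here. The authors deposited a score per spot, 0 or -50, with no stated meaning. The authors also deposited a log2 ratio and a p-value for cordycepin against control, which were not used.

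Groups were compared on log2 normalized intensities with limma 3.58.1 in R 4.3.3 (lmFit, eBayes), with Benjamini-Hochberg adjustment over the 24319 probes above 0 on every array; the other 2104 were left out. Adjusted p under 0.05 was called, and detection p under 0.05 was detected. Where no array of a group detected a probe, each array's value was set to its own lowest detected intensity, and the fold is a lower bound. With 2 arrays a group, the number of arrays limits the precision. Members and lists were chosen with earlier results of these data known. Named were all members, from each list at most 5 called and detected genes with the largest log2 ratio and any called higher, the 2 genes nearest in profile to each member, and markers detected on all arrays; Gata1, Gata2, Gata3, Gata5, Zfpm1, Fshr and Sox9 and the undetected markers were added after their values were seen. Some genes that the rule names are not reported here. Alternatives were 3 other scalings, detected probes only, values raised to 1, each array left out and the methods' t-test.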

Additional observations from a re-analysis of the deposited data

How the results depend on the processing

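Gata6 kept its call under each of the 9 limma alternatives, with log2 ratios from -3.78 to -2.83. Of the values given for single members, 45 kept both their sign and their side of the threshold. A further 9 lost the call, 7 gained it and 8 changed sign without passing. The 45 include Zfpm2 after quantile normalization, at -3.0e-16, where the sign has no meaning. The sign changes were those of Nr0b1 with array medians made equal (0.090), after quantile normalization (0.14) and without control 1 (0.035), of Lhcgr in the same 3 settings (0.24, 0.23 and 0.036), and of Zfpm2 with medians equal (0.13) and without control 1 (0.047). None of these passed the test. Over the fits that left out 1 array, the log2 ratio ran from -0.53 to 0.035 for Nr0b1, from -0.47 to 0.047 for Zfpm2 and from -0.23 to 0.036 for Lhcgr, lowest without control 2.

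Counts are given in the order NR5A1 partners, GATA partners, other factors, other receptors and receptor signalling. With ribosomal protein probes made equal, 6 members were lower, and 28, 20, 39, 35 and 28 genes, with 1 higher among NR5A1 partners, 1 among other receptors and 1 in receptor signalling; of all probes, 38.2% were lower and 1.83% higher there. With medians equal, 5, 6, 6, 12 and 9 were higher, and 19, 9, 28, 24 and 12 lower, against 20.5% and 17.6% of all probes. After quantile normalization, 9, 8, 7, 12 and 6 were higher, and 17, 9, 24, 22 and 9 lower, against 21.4% and 15.4% of all probes. Among detected probes only, 19, 8, 26, 19 and 10 genes were lower (27.6% of the 13317 probes in that setting). With values under 1 raised to 1, 9, 1, 11, 10 and 6 genes were lower (6.8% of all probes). Leaving out 1 array gave 1 to 4 members lower, and 7 to 22, 0 to 17, 9 to 34, 11 to 31 and 3 to 20 genes, the most without control 2 and the fewest without a cordycepin array, and 0 to 1, 0 to 1, 0 to 1, 0 to 6 and 0 to 2 higher, the most without control 1. Of all probes, 27% were lower without control 2, 13.4% without control 1 and 6.74% and 6.37% without cordycepin 1 and 2, and 8.98% were higher without control 1. The group left with 1 array was assumed to vary like the other. The methods' t-test called 0 members lower (3 at an unadjusted p under 0.05) and 0 genes in each list (14, 5, 16, 20 and 8 unadjusted). Of all 24319 probes tested it called 0, with 2946 lower at an unadjusted p under 0.05. The cause of these differences was not tested. No paired analysis was possible because the labels give the arrays no replicate number that the groups share. Dim probes, among them Prlr, Lhcgr, Zfpm2 and Wt1, lay near or under the detection limit, and 2 arrays a group leave wide intervals.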
